A study of Mus musculus with 48 samples.

Results

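Total RNA of the mediobasal hypothalamus (MBH) was compared between mice given a combination of AC3174 and AC170222 and mice given saline. The comparison was defined by the sample labels, and it takes in 6 of the 48 libraries of the series, 3 per group. AC3174 is an agonist of the receptor for glucagon-like peptide 1 (GLP-1) and AC170222 an agonist of the cholecystokinin (CCK) pathway. The combination group received both drugs and the saline group received neither. All were male C57/Bl6 mice of 9 weeks on standard chow that had been fasted for 6 h, so both groups were fasted, and each received 10 µL per g by intraperitoneal injection. The protocol gives 1 µg/kg for AC3174 and 2.5 µg/kg for AC170222, and it also writes AC710222 at 2.5 or 10 µg/kg. Sample titles spell the second drug AC170222 and the treatment field spells it AC710222. The sources used here do not state the doses within the combination, when tissue was taken, or how many mice made up a library. Nothing in the labels says that the libraries of a group came from separate animals, so p-values measure only the spread between these libraries. Input RNA came from a small part of each cleared homogenate. It was amplified before sequencing and is unselected, unlike the RNA immunoprecipitated with phosphorylated ribosomal protein S6 from the same region. Single-drug libraries (3 of AC3174 and 3 of AC170222) shared the fit. Saline is the common control of all these groups.

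The MBH holds the arcuate nucleus, where neurons that make Agrp and Npy drive feeding and neurons that make Pomc and Cartpt restrain it. GLP-1 and CCK are released by the gut after a meal and reduce food intake. The CCK type 1 receptor acts largely through vagal afferents and the hindbrain, while the GLP-1 receptor is found on arcuate neurons as well as in the hindbrain. Active neurons turn on immediate early genes such as Fos, and their messenger RNA reports recent activity.

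Counts were assigned to 38293 genes, with 61710021, 80084056 and 51992489 counts in combination 1 to 3, and 73279672, 56148585 and 77189727 in saline 1 to 3. Saline 2 stood apart from the other 11 MBH inputs. It held a count for 12853 genes, against 16655 to 18657 in the combination libraries and 16247 and 16786 in the other saline libraries. Of 9471 commonly expressed genes it missed 8.61%, against 0% to 0.0528% in the combination libraries and 0.137% and 0.285% in saline 3 and 1. Its median correlation with the other libraries was 0.78, and the other libraries had 0.906 to 0.943. Among tested genes 68 were at 0 in all combination libraries and 709 in all saline libraries, and 2251 genes were at 0 in saline 2 alone of the 6. The part of this loss of detection in the results below was not tested. Values without saline 2 are given for some genes and lists only. Where none is given, the value may also depend on saline 2. Regional markers were counted, though not evenly. Nr5a1, which marks the ventromedial nucleus, was at 31.5, 44.7 and 40.7 CPM in the combination libraries and at 58.3, 0.132 and 88.9 CPM in saline. It was thus near 0 in saline 2. Pomc, Npy, Agrp and the ventromedial gene Fezf1 were counted in all 6. Of 10 pituitary genes, Gh and Prl had 0 counts in both groups, but 5 were counted and tested (Cga, Tshb, Pou1f1, Tbx19 and Chga). These 5 summed to 79.0, 74.0 and 84.8 CPM in the combination libraries and to 143, 94.4 and 135 CPM in saline. Their median log2 difference was -0.25, and 0.26 without saline 2. Tbx19 had 5.50 ± 2.02 (edgeR adjusted p = 0.566, DESeq2 adjusted p = 0.0218). Cga, Tshb and Pou1f1 had -0.25 ± 2.08, -2.22 ± 3.39 and 0.20 ± 0.90. Chga had -0.73 ± 0.37 and is also in the list of prohormone processing below, so the sum does not measure pituitary tissue alone.

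**Figure D1:**
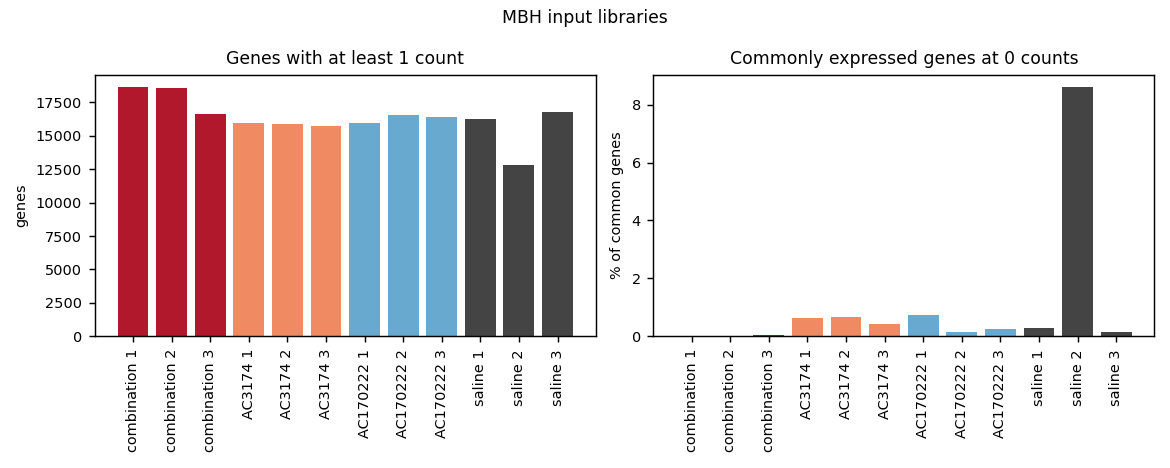
Left, genes with at least 1 count in each of the 12 MBH input libraries; right, share of 9471 commonly expressed genes at 0 counts (%). Bars are single libraries in the order combination, AC3174, AC170222, saline. Saline 2 has the fewest genes (12853) and the highest share at 0 (8.61%).

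The first question is which transcripts differed between the combination and saline. No gene passed the test: edgeR called 0 of 16622 genes higher (0%) and 0 lower (0%), with a lowest adjusted p of 0.388. At an unadjusted p under 0.05 there were 886 genes with higher and 538 with lower fitted values in the combination (5.33% and 3.24% of those tested). Nkx2-1, Fyn and Jund were among those with higher values, and Actg1, Gapdh and the adenine nucleotide carrier Slc25a5 among those with lower values. Of the 886, 481 had a saline library at 0 (457 of them saline 2), while this held for 12 of the 538. The common biological coefficient of variation was 1.12.

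Other tools gave other counts on the same libraries. DESeq2 called 522 genes higher and 49 lower (3.26% and 0.306%), of which 362 had a saline library at 0. The DESeq2 calls among list members given below stand beside these shares of all genes. Limma-voom called 10 higher and 0 lower (0.0602% and 0%), all 10 with a saline library at 0. The edgeR count was 7 without saline 3 and 1 without combination 2, and 0 without any of the other 4 libraries, saline 2 included. Counted without a test, all 3 combination libraries lay above all 3 saline libraries for 1838 genes (11.1%) and below them for 1114 (6.7%). Among 10104 genes of at least 10 CPM in the higher group the shares were 10.8% and 9.04%. The median fitted log2 difference of all genes was 0.08, and -0.00063 without saline 2.

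The gene called without combination 2 was Mtch1, a mitochondrial outer membrane protein, with a log2 difference of 1.87 ± 0.16 there (edgeR adjusted p = 0.00872). It had 689, 221 and 602 CPM in the combination libraries and 194, 170 and 183 CPM in saline. The 7 genes called without saline 3 were Sptlc1, Arhgef26, Trmt9b, Slc25a24, Zfp14, Pard6g and Rtl9. Each of them had at most 0.0137 CPM in saline 1 and saline 2, and 6.78 to 35.2 CPM in saline 3. The column numbers in the library identifiers also ran with treatment. Taken in 3 sets of adjacent columns, saline 1 and 2 were in set 1, saline 3 and combination 1 in set 2, and combination 2 and 3 in set 3. Of the single-drug libraries, AC170222 1 and 2 were in set 1, AC170222 3 and AC3174 1 in set 2, and AC3174 2 and 3 in set 3. A fit with this set as a covariate called 0 genes, and set and treatment can be told apart only through set 2.

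Among genes of at least 10 CPM whose groups did not overlap, the 12 of lowest p with higher values in the combination are described first. None was called by edgeR or limma-voom, and DESeq2 called all 12. Zfp41, a zinc finger protein on chromosome 15 from 75616679 to 75629827 (GRCm38), had 15.6, 18.6 and 7.01 CPM in the combination libraries and 0 in all saline libraries. This is at least 921-fold higher in the combination, against a floor of 3 counts over the saline group (edgeR adjusted p = 0.388). AC3174 had 41.4, 6.27 and 22.1 CPM and AC170222 had 16.8, 13.9 and 1.51 CPM, so the gene was counted in every MBH input but those of saline. In MBH RNA bound to phosphorylated S6, Zfp41 had 32.2, 19.5 and 0 CPM with saline and 10.1, 14.9 and 82.35 CPM with the combination. The transcript was thus counted in saline MBH outside the inputs, and the fold bound covers the input libraries only.

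Nkx2-1 is a homeobox factor that specifies the ventral hypothalamus, on chromosome 12 from 56531958 to 56536908. It was at 61.3, 34.1 and 48.2 CPM in the combination libraries, against 5.56, 6.25 and 6.22 CPM in saline. The 3 saline values lay close together, saline 2 included, and every combination value was above them. The fitted log2 difference was 2.99 ± 0.59 (SE, n = 3 per group; edgeR adjusted p = 0.388), and 3.02 without saline 2. An antisense transcript overlaps Nkx2-1 in the annotation, and the libraries keep no strand.

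Rnf19b, a ubiquitin ligase on chromosome 4 from 129058271 to 129085886, had 24.5, 23.9 and 26.7 CPM in the combination libraries and 1.70, 1.27 and 3.59 CPM in saline. Its combination values were the most even of this group, and its log2 difference was 3.52 ± 0.64 (edgeR adjusted p = 0.388). Fyn, a Src-family tyrosine kinase on chromosome 10 from 39368855 to 39565381, had 206, 164 and 212 CPM in the combination libraries and 30.2, 17.5 and 60.2 CPM in saline. The log2 difference of Fyn was 2.43 ± 0.46. Ubqln1, which carries ubiquitinated proteins to the proteasome, had 658, 335 and 505 CPM in the combination libraries and 60.7, 52.8 and 107 CPM in saline. Glud1, the mitochondrial glutamate dehydrogenase, had 450, 186 and 352 CPM in the combination libraries and 60.2, 81.0 and 64.9 CPM in saline. For both genes combination 2 was the lowest of its group and remained above every saline library.

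The other genes of this kind were Uri1 (a prefoldin-like chaperone), Brwd1 (a chromatin reader), Wsb2 (a ubiquitin ligase adaptor), Tmem65 (a mitochondrial membrane protein), Map7d1 (a microtubule-associated protein) and Neurl1a (a ubiquitin ligase of neurons). Leaving out Zfp41, the fitted log2 differences of the 11 genes ran from 1.44 in Brwd1 to 3.52 in Rnf19b, all at an adjusted p of 0.388 by edgeR. Their values varied in a shared way within the combination group, since combination 2 was below combination 1 and 3 in 11 of the 12 genes. AC170222 3 was above AC170222 1 and 2 in 9 of the 12. AC170222 3 was in set 2, and AC170222 1 and 2 were in set 1 with saline 1 and 2. The part of the set in this split was not tested. On the log2(CPM + 2) scale, the average over the 12 genes of each value minus its gene's mean was 1.24, 0.46 and 1.02 in combination 1 to 3, and -1.36, -1.61 and -1.26 in saline 1 to 3. Within set 2, combination 1 minus saline 3 ran from 1.1 to 3.42 on the log2(CPM + 2) scale in the 11 genes, which the rule of no overlap had already placed above 0.

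**Figure D2:**
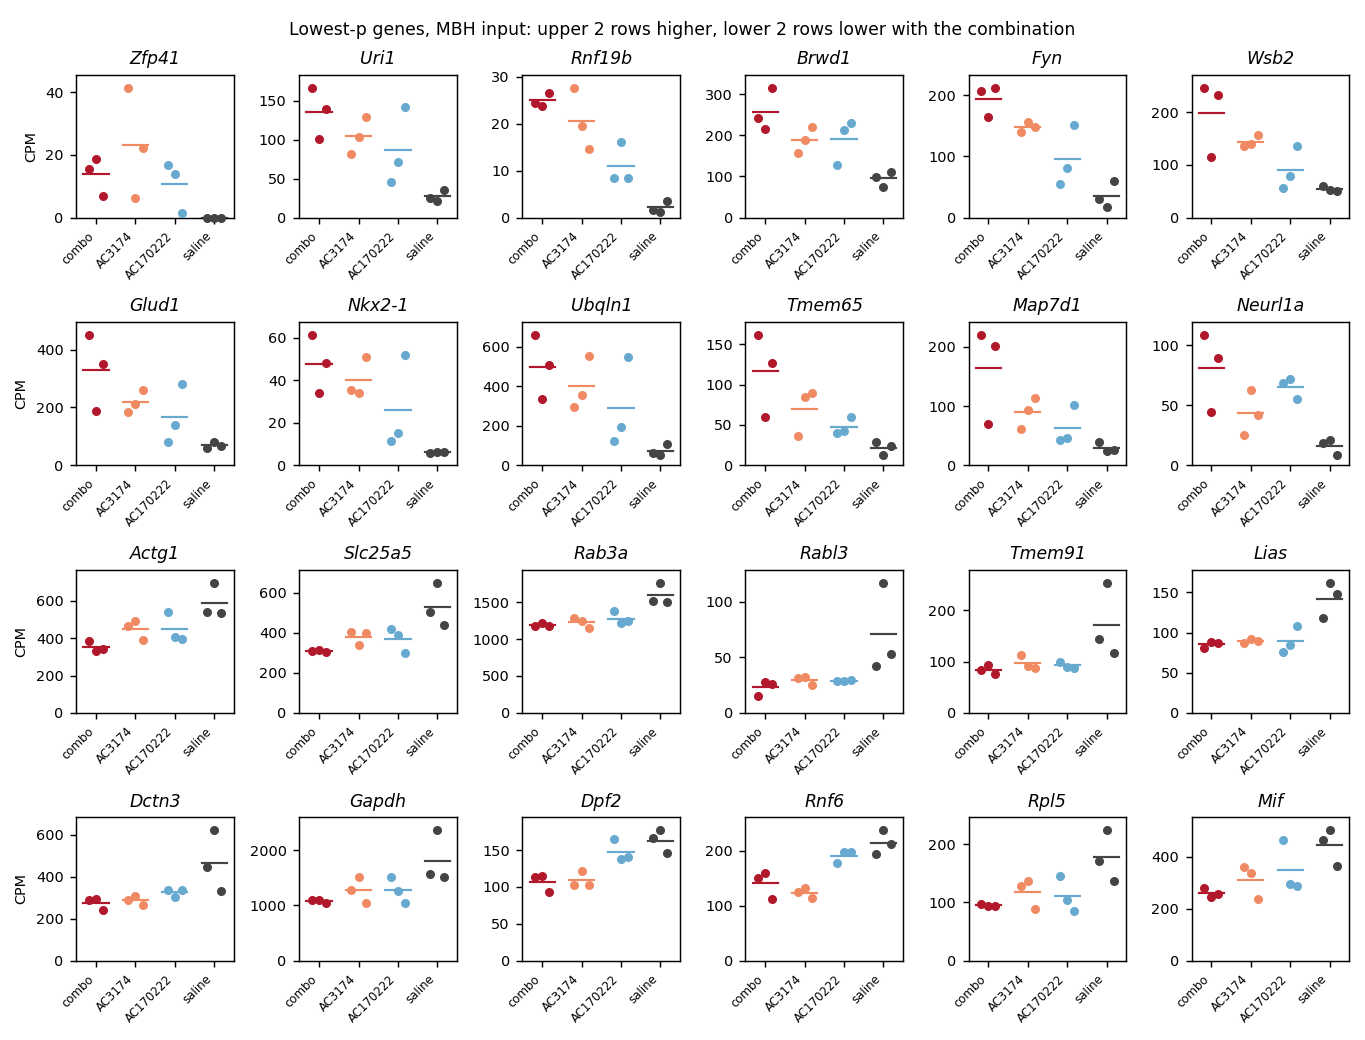
CPM of the 24 lowest-p genes in the 12 MBH inputs, 1 point per library and a bar at the mean of 3, on linear axes from 0. The upper 2 rows show genes higher and the lower 2 rows genes lower with the combination; combo is the combination, and the 2 groups do not overlap in any panel by the rule that chose them.

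The 12 genes of lowest p with lower values in the combination were not called by edgeR or limma-voom, and DESeq2 called 11 of them, all but Mif. Rab3a, a GTPase of synaptic vesicles on chromosome 8 from 70754679 to 70758677, had 1173, 1214 and 1183 CPM in the combination libraries and 1510, 1763 and 1509 CPM in saline. The combination values lay within a narrow band below saline, and the log2 difference was -0.42 ± 0.11 (edgeR adjusted p = 0.491). Actg1, cytoplasmic gamma-actin on chromosome 11 from 120345690 to 120348542, had 383, 331 and 344 CPM in the combination libraries and 540, 697 and 535 CPM in saline. The log2 difference of Actg1 was -0.74 ± 0.17 (edgeR adjusted p = 0.438), and -0.61 without saline 2. Gapdh, the glycolytic enzyme often used as a reference transcript, had 1092, 1107 and 1043 CPM in the combination libraries and 1573, 2361 and 1509 CPM in saline (log2 -0.75 ± 0.21, edgeR adjusted p = 0.499, and -0.51 without saline 2). Slc25a5 had 311, 316 and 305 CPM in the combination libraries and 502, 650 and 439 CPM in saline (log2 -0.77 ± 0.18, edgeR adjusted p = 0.438, and -0.60 without saline 2).

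Lias makes lipoic acid for mitochondrial dehydrogenases, and it had 81.0, 88.0 and 87.3 CPM in the combination libraries and 118, 162 and 148 CPM in saline. Its log2 difference was -0.74 ± 0.20. The remaining genes were Rabl3 (a small GTPase), Tmem91, Dctn3 (a dynactin subunit), Dpf2 (a chromatin remodelling subunit), Rnf6 (a ubiquitin ligase), Rpl5 (a ribosomal protein) and Mif (a cytokine). Over the 12 genes the log2 differences ran from -1.62 in Rabl3 to -0.42 in Rab3a, with edgeR adjusted p of 0.438 to 0.532. Saline 2 was the highest of the 6 libraries in all 12 of these genes, and without it the differences of Rabl3 and Tmem91 were -1.05 and -0.62. Actg1, Gapdh, Rpl5, Slc25a5 and Mif have processed pseudogenes that can share reads with them, so their counts carry that uncertainty. Dctn3, Tmem91, Rab3a, Gapdh and Rpl5 each overlap a protein-coding gene on the other strand.

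The second question is whether the genes of the 2 hormone systems differed. The ligands and receptors were lowly expressed in this tissue, at 0 to 13.6 CPM in tested members, and edgeR and DESeq2 called 0. Glp1r, the GLP-1 receptor on chromosome 17 from 30901817 to 30940791, had 1.80, 0 and 0.648 CPM in the combination libraries and 5.82, 0 and 4.54 CPM in saline (log2 -2.08 ± 2.77, edgeR adjusted p = 0.967). Each group held a library at 0, the groups overlapped, and an antisense transcript overlaps Glp1r in the annotation. Cckar, the CCK type 1 receptor on chromosome 5 from 53697776 to 53707705, had 4.14, 7.26 and 5.09 CPM in the combination libraries and 0, 1.30 and 0 CPM in saline. The groups did not overlap, but the fitted log2 difference of 3.66 ± 2.06 rested on saline libraries at 0 (edgeR adjusted p = 0.657).

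Cckbr, the type 2 receptor that predominates in brain, had 4.22, 1.48 and 13.3 CPM in the combination libraries and 6.39, 8.92 and 0 CPM in saline. Cck itself, which is also a brain neuropeptide, had 7.12, 5.73 and 13.6 CPM in the combination libraries and 4.35, 10.1 and 4.32 CPM in saline. Both overlapped between the groups. Of the 8 members, 6 were tested, 4 had a fitted difference above 0, against 53.7% of all genes tested, and 1 had groups that did not overlap on the higher side, against 11.1% of all genes. The list median was 0.41, with 0.034 without combination 3 and 1.01 without saline 2. Gipr was counted in combination 1 and 2 (1.78 and 0.452 CPM) and at 0 in combination 3 and all saline libraries, Dpp4 was at 0 in all 6, and Gcg had 0 counts in both groups. Glp2r was left out by the filter, with 134 counts over the combination libraries and 6 over saline. Too few libraries held enough counts of it, so these totals do not stand for each library.

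Most arcuate feeding peptides had fitted differences below 0, and edgeR called 0 of 18 tested members and DESeq2 called Sst. The list held 4 members above 0 and 14 below, with a median log2 of -0.39 against 0.08 for all genes, and -0.28 against -0.00063 without saline 2. It was -0.16 without combination 2 and -0.12 with the library set as covariate. Sst, somatostatin, on chromosome 16 from 23889573 to 23890958, had 60.7, 50.1 and 60.6 CPM in the combination libraries and 102, 99.9 and 87.3 CPM in saline. All 3 combination libraries lay below all saline libraries, with a log2 difference of -0.75 ± 0.23 (edgeR adjusted p = 0.533) and -0.73 without saline 2. DESeq2 gave Sst a log2 of -0.75 with an adjusted p of 0.0106. Ghrh, the growth hormone-releasing hormone of arcuate neurons, also had no overlap, at 9.05, 5.77 and 8.61 CPM in the combination libraries and 14.2, 10.2 and 12.1 CPM in saline (log2 -0.64 ± 0.68). These 2 were the members without overlap on the lower side, and 0 lay on the higher side, where the shares of all genes were 6.7% and 11.1%.

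The hunger peptides Npy and Agrp overlapped between the groups. Npy had 48.7, 36.5 and 63.3 CPM in the combination libraries and 52.4, 86.4 and 51.4 CPM in saline, with a log2 difference of -0.36 ± 0.33. Agrp had 12.8, 6.16 and 12.2 CPM in the combination libraries and 7.82, 13.4 and 7.27 CPM in saline, with a difference of 0.13 ± 0.71. Among the satiety peptides, Pomc had 56.8, 57.2 and 73.6 CPM in the combination libraries and 61.3, 78.5 and 87.7 CPM in saline (log2 -0.28 ± 0.31). Cartpt had 59.0, 45 and 60.6 CPM in the combination libraries and 97.0, 70.6 and 58.3 CPM in saline (log2 -0.46 ± 0.29). Saline 1 and 2 were above every combination library for Cartpt, and saline 3 was within their range. Th, which makes dopamine, had log2 -0.67 ± 0.36 and Pdyn, the dynorphin precursor, -0.88 ± 0.45, both with overlap. Tac1, Tac2, Nts, Gal, Penk and Adcyap1 had log2 values of -0.69 (Nts) to -0.08 (Tac1), also with overlap. Kiss1 was not matched in the table, and Vip had 333 counts over the combination libraries, 0 over saline, and was not tested. The filter left Vip out because too few libraries held enough counts, so this total does not stand for each combination library.

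Peptides of neighbouring hypothalamic nuclei had fitted differences below 0 in 6 of 8 members, and edgeR and DESeq2 called 0. Oxt, oxytocin, had 19.9, 19.8 and 10.9 CPM in the combination libraries and 44.2, 35.0 and 32.4 CPM in saline, without overlap (log2 -1.14 ± 0.43, edgeR adjusted p = 0.566). Hcrt, orexin, had 12.9, 7.85 and 13.9 CPM in the combination libraries and 100, 23.7 and 12.8 CPM in saline (log2 -1.98 ± 0.83, edgeR adjusted p = 0.566). For Hcrt saline 1 was far above the other 5 libraries, and saline 3 lay inside the combination range. The list median was -0.46, and it was -0.71 without saline 2, -0.76 without combination 1, -0.24 without combination 2, -0.22 without combination 3, -0.12 without saline 1 and -0.022 with the library set as covariate. Their neurons lie outside the arcuate nucleus, and in bulk tissue fewer cells of a type and less RNA per cell cannot be told apart.

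Of 22 tested receptors that act on appetite, edgeR called 0 and DESeq2 called Calcr. The median of 0.16 was 0.03 without saline 2, -0.26 without combination 3, -0.063 without saline 1 and 0.45 without saline 3. Calcr, the calcitonin receptor that amylin also uses, is on chromosome 6 from 3685680 to 3764714. It had 15.1, 6.47 and 1.62 CPM in the combination libraries and 0, 0 and 0.0800 CPM in saline (fitted log2 8.04 ± 2.33, edgeR adjusted p = 0.528; DESeq2 adjusted p = 7.32e-05). AC3174 3 had 0.326 CPM of Calcr and AC170222 had 13.2, 8.67 and 9.85 CPM. Ntrk2, the receptor for BDNF, had 124, 83.5 and 150 CPM in the combination libraries and 105, 2.27 and 106 CPM in saline. Without saline 2 its log2 of 0.74 became 0.17. Lepr, Mc4r and Ghsr overlapped between the groups.

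Enzymes and carriers of prohormone processing had 5 members above 0 and 8 below, and edgeR and DESeq2 called 0. Cpe, which trims peptide ends, had 347, 336 and 386 CPM in the combination libraries and 219, 155 and 264 CPM in saline, and did not overlap (log2 0.74 ± 0.33, edgeR adjusted p = 0.581). Pam, which amidates peptides, had 32, 22.4 and 35.6 CPM in the combination libraries and 8.38, 19.9 and 3.32 CPM in saline (log2 1.51 ± 0.79). Pcsk1n, an inhibitor of the convertase Pcsk1, had 415, 365 and 386 CPM in the combination libraries and 148, 11.2 and 330 CPM in saline. On the lower side Chga had log2 -0.73 ± 0.37 and Chgb -0.37 ± 0.26, both granin genes without overlap. The 13 members had a median of -0.12, and 0.14 without combination 2.

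**Figure D3:**
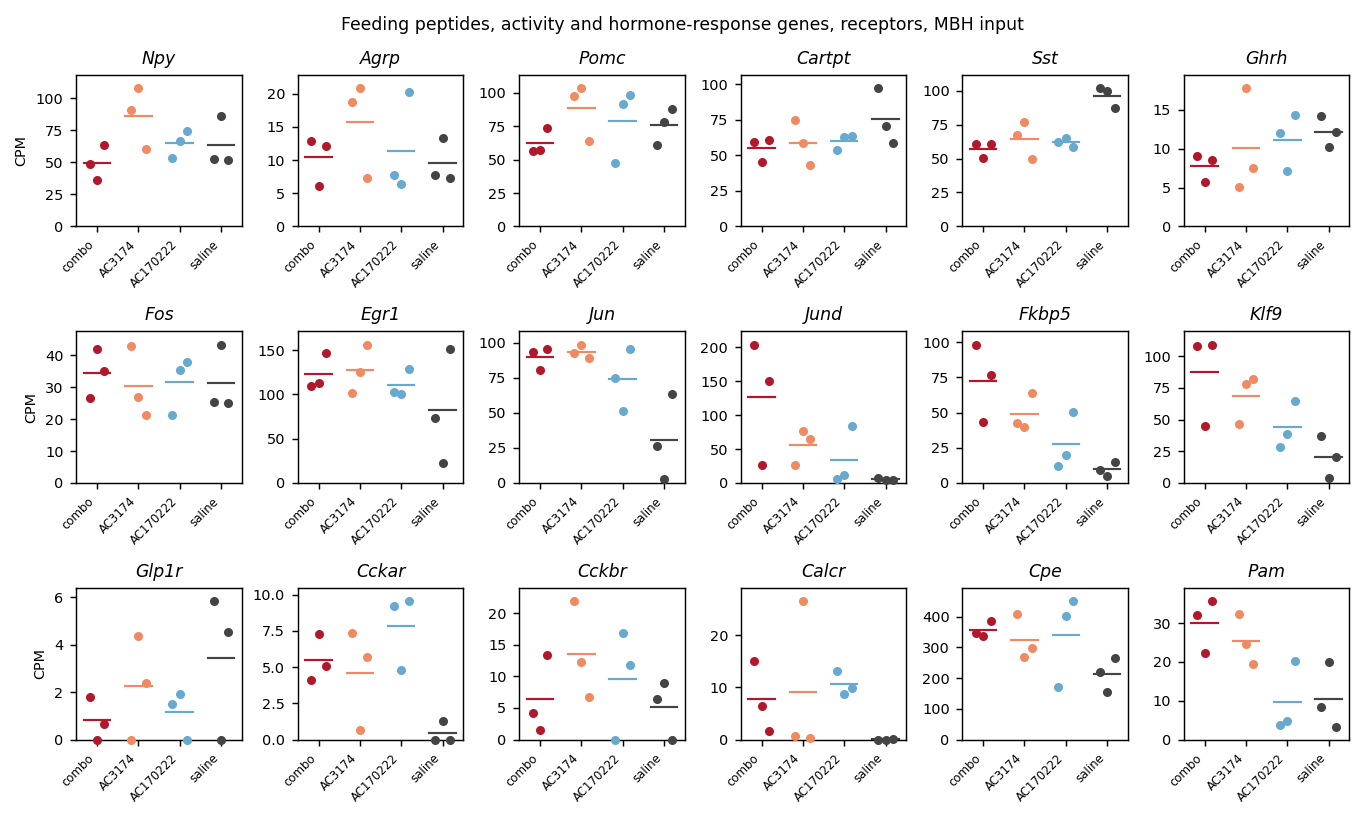
CPM of 18 genes in the 12 MBH inputs, 1 point per library and a bar at the mean of 3, on linear axes from 0; combo is the combination. Combination and saline points overlap for Npy, Agrp, Pomc, Fos and Glp1r, and are apart for Sst, Ghrh, Jun, Jund, Fkbp5, Klf9, Cckar, Calcr, Cpe and Pam. None of these genes was called by edgeR, and DESeq2 called Sst, Jund, Fkbp5 and Calcr.

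The third question is whether genes of neuronal activity differed. Fos and most classical early genes overlapped between the groups, and edgeR called 0 of 27 tested immediate early genes. DESeq2 called Jund (adjusted p = 3.82e-05) and Klf2 (adjusted p = 0.0418). Fos had 26.6, 42.0 and 35.1 CPM in the combination libraries and 25.4, 43.2 and 25.1 CPM in saline, with a log2 difference of 0.15 ± 0.42 (edgeR adjusted p = 0.999). Nr4a1 (log2 -0.04 ± 0.60), Junb (-0.15 ± 0.35) and Arc (0.28 ± 1.46) also overlapped. Egr1 had 110, 113 and 147 CPM in the combination libraries and 73.1, 22.5 and 151 CPM in saline, so saline 3 was the highest and saline 2 the lowest of the 6.

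Jund, an AP-1 subunit with steady expression in most cells, lay far apart between the groups. It had 204, 25.8 and 151 CPM in the combination libraries and 7.16, 4.86 and 4.78 CPM in saline. Combination 2 was far below the other combination libraries and still above saline. The log2 difference was 4.5 ± 1.07 (edgeR adjusted p = 0.438), and 4.41 without saline 2. An antisense transcript overlaps Jund on chromosome 8 from 70699162 to 70700080. Jun had 93.1, 80.8 and 95.3 CPM in the combination libraries and 26.6, 2.59 and 63.8 CPM in saline (log2 1.53 ± 0.76, edgeR adjusted p = 0.598, 0.99 without saline 2). Ier5 had 16.7, 24.4 and 21.8 CPM in the combination libraries and 7.01, 0.0945 and 0.894 CPM in saline (log2 2.97 ± 1.33).

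Over the list, 19 members were above 0 and 8 below, with a median of 0.53 against 0.08 for all genes, and 0.34 without saline 2. The median was 0.14 when the fit was limited to genes counted in all 6 libraries, an alternative added after the data were seen, and 0.015 once the library set entered as a covariate. Groups did not overlap for 6 members, all on the higher side (Jund, Jun, Ier5, Egr4, Fosb and Klf2), against 11.1% of all genes. Saline 2 was the lowest of the 6 libraries in 12 members and at 0 in 10, and its part in these differences was not tested. Of 20 genes that respond to cAMP and calcium, edgeR called 0 and DESeq2 called Creb3l1 and Sst. The median was 0.16, and 0.058 without combination 1 to 0.36 without saline 3. Bdnf, a growth factor of active neurons, had 17.5, 16.1 and 23.6 CPM in the combination libraries and 5.67, 0.264 and 15.1 CPM in saline (log2 1.45 ± 1.13). Per1, which is both a clock gene and a cAMP target, had 21.1, 27.1 and 21.4 CPM in the combination libraries and 25.0, 94.5 and 21.6 CPM in saline. Its log2 difference was -1.02 ± 0.54, and -0.01 without saline 2.

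Genes that respond to glucocorticoids had both higher and lower values. Fkbp5, a co-chaperone of the glucocorticoid receptor on chromosome 17 from 28399094 to 28517527, had 98.1, 43.6 and 76.4 CPM in the combination libraries and 9.53, 4.63 and 15.0 CPM in saline. The groups were well apart, and the log2 difference was 2.90 ± 0.63 (edgeR adjusted p = 0.388; 2.57 without saline 2). Klf9, a transcription factor induced by corticosterone, had 108, 45.3 and 109 CPM in the combination libraries and 36.9, 3.80 and 20.5 CPM in saline (log2 2.10 ± 0.70, edgeR adjusted p = 0.566). Combination 2 was the lowest of its group for both genes. Plin4, a lipid droplet protein, had 1.39, 0.978 and 3.47 CPM in the combination libraries and 0, 0 and 0.0133 CPM in saline, and its fitted log2 of 8.19 ± 3.17 rested on saline libraries at or near 0 (edgeR adjusted p = 0.566). Among the other members, Tsc22d3 had log2 -0.12 ± 0.21 and Sgk1 -0.14 ± 0.30, and the metallothionein Mt1 had -0.55 ± 0.28. Of 15 members edgeR called 0 and DESeq2 called Fkbp5 (adjusted p = 8.67e-05). The median was -0.12 with 6 members above 0, and it was 0.037 without saline 2, -0.31 without saline 3 and 0.36 with the library set as covariate.

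The hypothalamic transcription factors that define the region were above 0 in 15 of 20 members, with a median of 0.78 (0.29 without saline 2). EdgeR called 0 of them and DESeq2 called Nkx2-1. Besides Nkx2-1, its relative Nkx2-4 had 11.2, 5.28 and 4.25 CPM in the combination libraries and 0.192, 2.72 and 1.31 CPM in saline, without overlap (log2 2.3 ± 1.1, edgeR adjusted p = 0.594). Isl1, a factor of Pomc neurons, had 96.8, 99.0 and 151 CPM in the combination libraries and 86.2, 176 and 144 CPM in saline. Fezf1 had log2 0.26 ± 0.27 and Six6 -0.77 ± 0.43. Saline 2 was the lowest library in 12 of the 20. Among 15 markers of forebrain and thalamus next to the dissection, Tcf7l2, a thalamic factor, had 48.8, 37.4 and 39.5 CPM in the combination libraries and 54.6, 88.0 and 64.9 CPM in saline (log2 -0.72 ± 0.27, edgeR adjusted p = 0.566). Drd2, Adora2a and Lhx9 were at 0.777 to 4.47 CPM in the combination libraries and at 0 to 0.274 CPM in saline. Of these 15 markers, 6 had no overlap on the higher side (40%, against 11.1% of all genes). On the lower side it was 1 (6.67%, against 6.7%). The list median was 0.54, with 0.02 without saline 2 and 3.11 without saline 1. EdgeR called 0 of them and DESeq2 called Drd2. How far differences in the tissue taken entered the comparison was not tested.

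Transcripts of energy metabolism had lower fitted values in the combination as groups. Of 23 nuclear genes for the respiratory chain, 20 were below 0, 11 had groups that did not overlap on the lower side (against 6.7% of all genes), and edgeR and DESeq2 called 0. Cycs, cytochrome c, had 229, 206 and 198 CPM in the combination libraries and 398, 514 and 273 CPM in saline (log2 -0.90 ± 0.27, edgeR adjusted p = 0.532). Uqcrb, of complex III, had 301, 256 and 247 CPM in the combination libraries and 457, 643 and 314 CPM in saline (log2 -0.82 ± 0.26). Atp5b and Atp5a1, the catalytic subunits of ATP synthase, had log2 differences of 0.0039 ± 0.11 and 0.0028 ± 0.10. The median of the list was -0.55, and -0.33 without saline 2, which was the highest of the 6 libraries in 19 members. All 23 were below 0 without saline 2, against a median of all genes of -0.00063, and the list median was -0.17 with the library set as a covariate.

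Transcripts of the mitochondrial genome were all below 0, at a median of -0.74, but followed single libraries. Their summed level was 7205, 2153 and 1877 CPM in the combination libraries and 10890, 6935 and 1275 CPM in saline. Combination 1 was more than saline 2, saline 3 was the lowest of all, and 0 of 13 members had groups that did not overlap. The median was -0.11 without saline 1, -1.62 without combination 1, and 1.46, in the other direction, with the library set as covariate. Haemoglobin and haem genes of red blood cells summed to 36.4, 28.1 and 26.5 CPM in the combination libraries and to 125, 181 and 37.1 CPM in saline. Hba-a2 had 7.95, 6.81 and 6.48 CPM in the combination libraries and 34.6, 57.6 and 8.06 CPM in saline (log2 -2.24 ± 0.91, edgeR adjusted p = 0.566), so saline 3 was close to the combination. All 5 members were below 0, with a median of -1.96, which became 0.33 with the library set as a covariate. Hba-a1 and Hba-a2 are near-identical copies, as are Hbb-bs and Hbb-bt, and reads cannot be assigned to single copies with certainty.

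Heat shock chaperones had 4 of 12 members above 0, against 53.7% of all genes, and 4 without overlap on the lower side, against 6.7%. EdgeR and DESeq2 called 0. Hspa8, the constitutive Hsp70, had 1133, 1201 and 1174 CPM in the combination libraries and 1340, 1872 and 1680 CPM in saline (log2 -0.48 ± 0.14, edgeR adjusted p = 0.534). The inducible Hspa1a had 8.56, 7.56 and 4.21 CPM in the combination libraries and 6.83, 4.12 and 8.19 CPM in saline. The list median was -0.42, and -0.13 without saline 2. Of the S6 kinase pathway, which phosphorylates the protein used for the immunoprecipitation, Rps6 had 144, 148 and 117 CPM in the combination libraries and 206, 229 and 171 CPM in saline (log2 -0.57 ± 0.27, edgeR adjusted p = 0.596). Mtor (0.04 ± 0.47) and Rps6kb1 (0.02 ± 0.41) had small fitted differences, and edgeR and DESeq2 called 0 of 18 members. Of these, 13 were above 0 and 5 below, with a list median of 0.10, and 0.12 without saline 2. Groups did not overlap for 3 members on the higher side (16.7%, against 11.1% of all genes). On the lower side it was 1 (5.56%, against 6.7%). Clock genes had a median of 0.22, which was 0.65 without saline 3 and 0.11 without saline 2, and edgeR and DESeq2 called 0 of 17. Dbp, a clock output gene, had 85.6, 85.3 and 67.1 CPM in the combination libraries and 13.2, 0.0189 and 45.4 CPM in saline.

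Among well-counted cell types, list medians ran from -0.29 to -0.03, against 0.08 for all genes. The 15 neuronal markers had a median of -0.08 and summed to 10760, 11300 and 10670 CPM in the combination libraries and to 12080, 12140 and 11890 CPM in saline. In this sum every combination library was below every saline library. Snap25, a vesicle fusion protein, had 2982, 2857 and 2860 CPM in the combination libraries and 3485, 4401 and 2969 CPM in saline (log2 -0.32 ± 0.15). Astrocyte markers had a median of -0.29 (0.0073 without saline 2), and those of myelinating oligodendrocytes -0.03. Summed astrocyte markers were at 1705, 1667 and 1799 CPM in the combination libraries and at 2128, 2324 and 1902 CPM in saline, also without overlap. Those of myelinating oligodendrocytes overlapped, at 2520, 2546 and 2407 CPM in the combination libraries and 3524, 1921 and 2294 CPM in saline. Microglial markers were low, at summed levels of 68.8, 30.6 and 59.3 CPM in the combination libraries and 81.8, 47.4 and 51.4 CPM in saline.

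Markers of rarer cell types were unevenly counted, and saline 2 was often at 0. Markers of oligodendrocyte precursors summed to 322, 286 and 308 CPM in the combination libraries and to 163, 0.51 and 249 CPM in saline. Olig1 made up most of this, with 214, 167 and 194 CPM in the combination libraries and 40.9, 0.151 and 126 CPM in saline. The list median was 1.06, 0.48 without saline 2 and 1.83 without saline 3. Endothelial markers were at 0 in all saline libraries for 4 of 8 tested members (Cldn5, Pecam1, Kdr and Slco1a4), which gave a median of 5.63, or 4.19 with these 4 taken at the floor of 3 counts. This median was 2.61 without combination 3, 8.35 without saline 1, 0.27 in the fit of the 6 libraries alone and 0.25 among genes counted in all 6. EdgeR called 0 members and DESeq2 called Cldn5, Kdr and Slco1a4. Their summed level was 33.3, 17.9 and 65.4 CPM in the combination libraries and 25.0, 20.4 and 16.8 CPM in saline. Choroid plexus and meningeal markers summed to 339, 101 and 148 CPM in the combination libraries and to 201, 1540 and 106 CPM in saline. Ptgds, which makes prostaglandin D2 in meninges and choroid plexus, accounted for saline 2 with 1483 CPM. Of the 13 tested members of this list, 8 were above 0 and 5 below, and 3 were at 0 in all saline libraries. The list median was 0.70, with 1.02 without saline 2 and -0.15 among genes counted in all 6. EdgeR called 0 members, and DESeq2 called Igfbp2 and Foxc1, both with higher values in the combination.

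**Figure D4:**
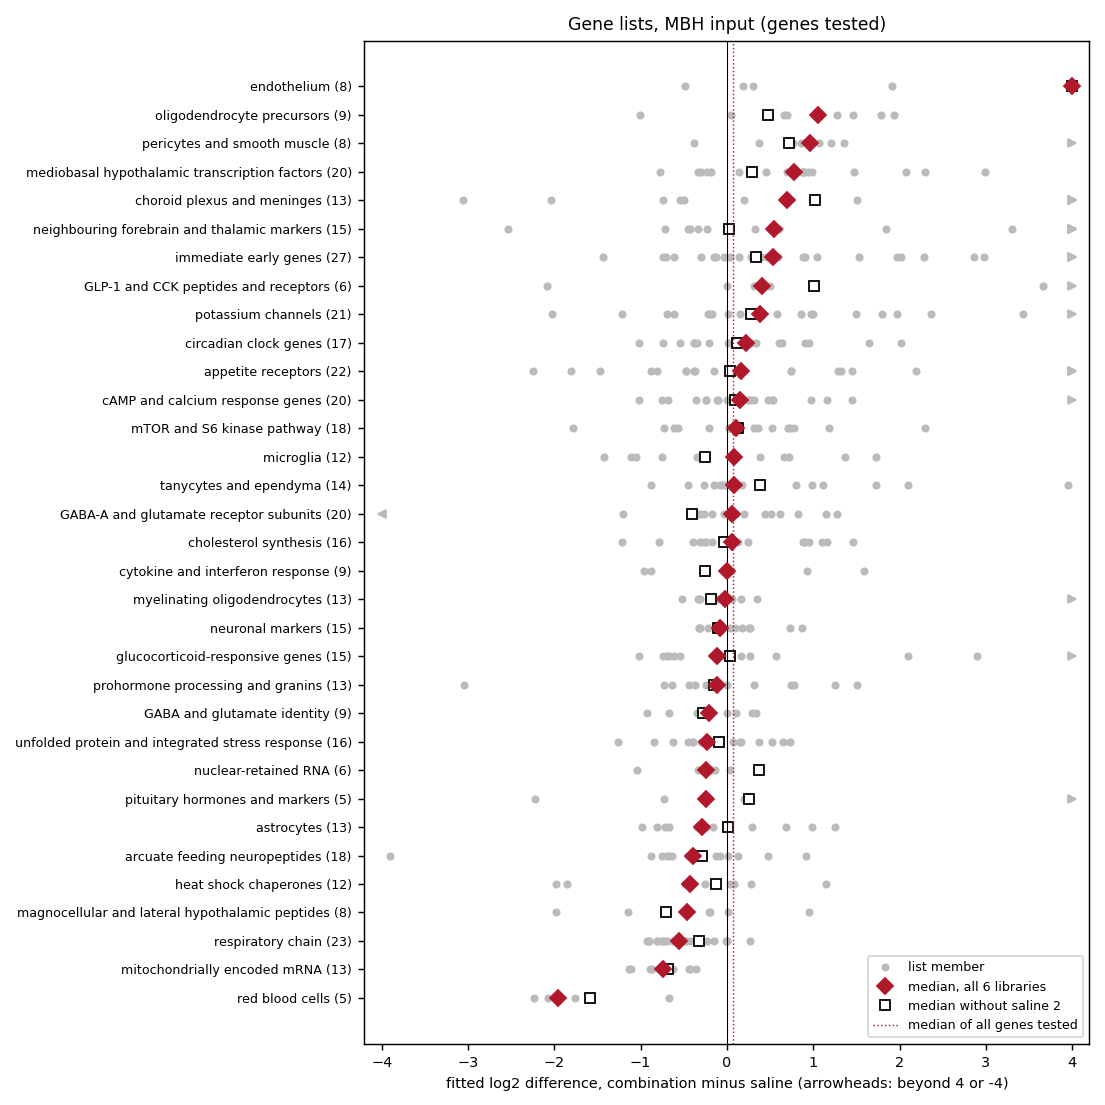
Fitted log2 difference, combination minus saline, of the tested members of 33 gene lists (grey; number tested in brackets), with list medians over all 6 libraries (red diamonds) and without saline 2 (open squares). Values beyond 4 are drawn at the edge, among them the endothelial median of 5.63; over all 6 libraries the red blood cell, mitochondrial and respiratory chain medians lie lowest, while without saline 2 the magnocellular median (-0.71) is below the mitochondrial one (-0.68). EdgeR called 0 members and DESeq2 16, from 459 tested list entries (some genes are in several lists). Of all genes DESeq2 called 3.26% higher and 0.306% lower.

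Fitted differences also followed transcript length. The 10050 genes of at least 10 CPM with a known length were divided by length into 5 groups of 2010. The median log2 difference was -0.34 in the shortest group (up to 2031 bases) and 0.23 in the longest (5386 bases or more). Without saline 2 these medians were -0.15 and 0.08. Spearman's correlation across genes between the log2 difference and length was 0.27, and 0.17 without saline 2, given as a description since all genes share the same 6 libraries. With GC content it was -0.03. Genes whose combination libraries all lay below saline had a median length of 2112 bases, those above it 3962 bases and those with overlap 3565 bases. The part of transcript length in the values of the gene lists was not tested.

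**Figure D5:**
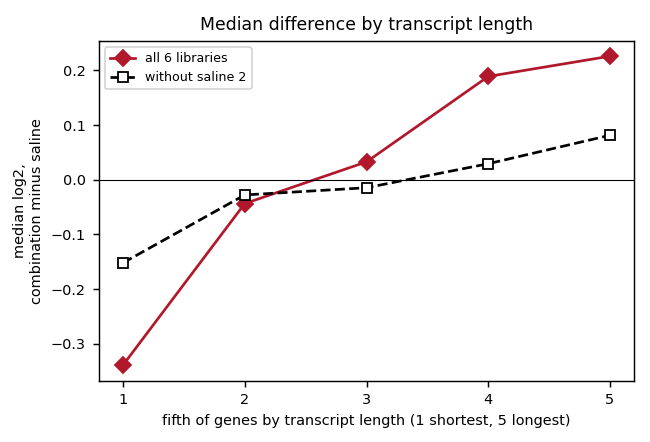
Median fitted log2 difference, combination minus saline, in 5 groups of 2010 genes by transcript length, over all 6 libraries (red diamonds) and without saline 2 (open squares). The medians run from -0.34 in the shortest group to 0.23 in the longest, and from -0.15 to 0.08 without saline 2.

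Values of the single drugs are set beside the combination without a test, because all share the saline libraries. Among the 12 genes with higher values, every AC3174 library was above every saline library in 12, and every AC170222 library in 9. Among the 12 with lower values, every AC3174 library was below every saline library in 11, and every AC170222 library in 5. These genes had been chosen for lying apart from the same saline libraries. Nkx2-1 had log2 differences from saline of 2.99 with the combination, 2.75 ± 0.58 with AC3174 and 2.12 ± 0.57 with AC170222. AC170222 3 (51.9 CPM) lay with the combination, and AC170222 1 and 2 (11.4 and 15.0 CPM) lay nearer saline. By column numbers AC170222 3 was in set 2, and AC170222 1 and 2 were in set 1. Fyn had 2.43, 2.04 ± 0.46 and 1.41 ± 0.45 in the same order of groups. Gapdh had -0.75, -0.50 ± 0.21 and -0.51 ± 0.21, and Sst was at 67.6, 76.9 and 49.8 CPM with AC3174 and 62.0, 65.0 and 58.8 CPM with AC170222. Jund was at 26.6, 76.5 and 65.0 CPM with AC3174 and at 6.31, 11.2 and 84.3 CPM with AC170222. The respiratory chain median was -0.55 with the combination, -0.45 with AC3174 and -0.47 with AC170222. For the hypothalamic transcription factors it was 0.78, 0.65 and 0.44 in the same order. Mitochondrially encoded transcripts had -0.74, 0.21 and -0.40, so AC3174 lay on the other side of 0 there. Genes at 0 in all 3 libraries of a group numbered 68 for the combination, 606 for AC3174, 437 for AC170222 and 709 for saline. Of genes counted in all 9 libraries of the other treatments, 0 were at 0 in all combination libraries, 7 in all of AC3174, 2 in all of AC170222 and 13 in all of saline, Zfp41 among them.

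The last question is whether the MBH input differed from the same contrast elsewhere. In the dorsal vagal complex (DVC), a hindbrain centre for gut signals, edgeR called 0 of 17477 genes between combination and saline inputs (0%; 940 at an unadjusted p under 0.05). In the difference of the combination effects, MBH minus DVC, edgeR called 3 of 18576 genes: Zfp41 and Cgnl1 higher (0.0108%) and Fam167a lower (0.00538%). The 11 other genes with higher values in the MBH had log2 differences of 0.15 to 1.15 in the DVC where tested, Nkx2-1 being untested there, and the 12 with lower values had -0.47 to 0.36. None of these 23 was called in the difference (lowest edgeR adjusted p = 0.429). Fos had 44.3, 37.3 and 27.8 CPM in combination inputs of the DVC and 19.6, 23.6 and 14.2 CPM in its saline inputs. Its difference MBH minus DVC was -0.77 ± 0.50 (edgeR adjusted p = 0.732). In MBH RNA bound to phosphorylated S6, edgeR called 0 of 14766 genes between combination and saline (127 at an unadjusted p under 0.05), and 0 of 17461 in the difference from the input (700 at an unadjusted p under 0.05; lowest edgeR adjusted p = 1).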

How the data were processed

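MBH input RNA was amplified with SMART-Seq v4 and tagmented with Nextera XT, per the labels' protocols, which leaves strand unmarked. The tools are TopHat2 2.0.11 and HTSeq 0.6.1p1 with GRCm38, per the submitters' processing notes. Their settings: not given in the sources used here. One deposited table holds the authors' raw read counts for 38293 genes in 48 libraries. Symbols and positions came from GENCODE M21 (36345 genes matched). CPM was computed from these counts on TMM-scaled library sizes, and ± is SE for log2 values.

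The 12 MBH inputs (4 treatments of 3) were fitted together with edgeR 4.0.16 (filterByExpr, quasi-likelihood F test, 2-sided, Benjamini-Hochberg over 16622 genes, called under 0.05) in R 4.3.3, with the contrast combination minus saline. Interaction contrasts used the 24 inputs of both regions, or the 24 MBH libraries. DESeq2 1.42.0, limma 3.58.1, other scalings and filters, a library-set covariate and leaving out libraries were alternatives. The code was tested on simulated data. Named genes were the 12 of lowest p per direction with at least 10 CPM and no overlap, and from each of 33 lists the 4 of highest CPM and 2 of lowest p, with every early gene, arcuate peptide and hormone receptor allowed. Outside this rule, and after their values were seen, Bdnf, Chgb, Dbp, Ghsr, Hspa1a, Lepr, Lhx9, Mc4r, Mtor, Pam, Plin4, Rps6kb1, Slco1a4 and the genes called only in an alternative or in the regional difference were named. The comparison and the lists were chosen with earlier results of these data known. No molecular identifiers were used, so the floor of 3 counts covers counting error only. Replicates differed beyond sampling noise (chi-square per degree of freedom of at least 141.6), so none was a copy.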

Additional observations from a re-analysis of the deposited data

Results flagged for a closer look

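The combination effect differed between MBH and DVC inputs for 3 genes by an edgeR interaction test, and each rests on libraries at 0. Zfp41 had a difference of 12.41 ± 1.73 on the log2 scale (adjusted p = 0.0182). It was at 0 in all MBH saline inputs, while in the DVC it had 26.1, 28.3 and 9.03 CPM with the combination and 26.1, 6.00 and 17.8 CPM with saline. Cgnl1, a junction protein, had a difference of 10.67 ± 1.56 (adjusted p = 0.0182). In the MBH it had 3.33, 3.4 and 4.19 CPM with the combination and 0 in all saline inputs, and in the DVC 34.9, 27.9 and 26.4 CPM with the combination and 27.2, 31.5 and 20.5 CPM with saline. In MBH RNA bound to phosphorylated S6, Cgnl1 had 25.4, 10.2 and 0 CPM with saline and 30.1, 0.786 and 13.2 CPM with the combination. Fam167a had a difference of -11.87 ± 1.74 (adjusted p = 0.0182). In the MBH it had 7.07, 4.98 and 1.91 CPM with the combination and 4.13, 43.3 and 6.34 CPM with saline, and in the DVC 2.14, 0.612 and 3.02 CPM with the combination and 0 in all saline inputs. None of the 3 was called without combination 1, Fam167a and Cgnl1 were not called without combination 3, and Fam167a was not called without combination 2.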

How the results depend on the processing

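The count of 0 genes held with 2 other scalings, no filter, a stricter filter, the 6 libraries alone, the library set as a covariate and genes counted in all 6. DESeq2 called 571 genes (3.26% of all genes higher and 0.306% lower), 16 of them list members from 459 tested list entries. Limma-voom called 10. Leaving out a library gave 0 to 7 genes and 0 list members. The MBH minus DVC difference had 3 genes called, 22 with limma-voom and 0 to 92 with a library left out; the difference between bound RNA and input had 0, and 4 with limma-voom. Hba-a2 and Hbb-bs turned to 0.45 and 0.17 on the log2 scale with the library set as a covariate; the cause was not tested. Genes at an unadjusted p under 0.05 numbered 1424, with 908 under the stricter filter, 873 in the 6 libraries alone, 407 with the set covariate and 842 to 2304 with a library left out. Replicate numbers pair nothing by the labels: deviations of the same number had r of -0.00773 to 0.0442 in 3 combination and saline pairs, 0 over 0.1. A replicate block gave 0 genes, 2 for MBH minus DVC and 0 for bound RNA minus input. With 3 libraries a group and wide spread, many differences were not detectable, large ones included. In simulated counts with the fitted spread, edgeR called 0 of 100 abundant genes changed 2-fold and 32 of 100 changed 4-fold. It also made 3 false calls there. These counts held no library like saline 2 and no library set, so they do not cover such differences between libraries. The cause of the genes at 0 in saline 2 was not tested.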
